A study of Mus musculus with 6 samples.

Results

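The H2 complex is the major histocompatibility complex of the mouse. Its class I genes, H2-K and H2-D with the related H2-Q and H2-T genes, encode cell-surface proteins that display peptides to CD8 T cells. Its class II genes encode the proteins that display peptides to CD4 T cells. Between these lie genes for peptide loading (the transporter genes Tap1 and Tap2, the proteasome subunit genes Psmb8 and Psmb9), for complement and for cytokines of the tumour necrosis factor family. The complex is described here through the binding of mSin3A, the scaffold protein of a co-repressor complex that carries histone deacetylases. Its members are all islands (stretches of enriched signal) on the mouse build mm9 that overlap chr17:34050000-36350000, from the H2-K genes to the H2-Q and H2-T genes. They number 338 of the 54058 islands in the 4 deposited lists.

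Binding was mapped by chromatin immunoprecipitation and sequencing (ChIP-seq) in TCRbeta high CD8+ T cells sorted from spleen. Cells came from wild-type (WT) mice or from mice of genotype Tcf1-/-Lef1-/-, called deficient, in which CD4-Cre had removed Tcf1 and Lef1. These are related transcription factors that bind DNA through an HMG box and guide T cell development. CD4-Cre is active from the thymocyte stage that expresses Cd4, so deletion precedes maturation into CD8 T cells. Whether WT mice carried the Cre transgene or floxed alleles was not given in the sources used here, nor were the age, sex and number of mice. Both genotypes have a library for condition 1 and another for condition 2, terms that the labels do not explain. There is thus 1 library for each genotype and condition, no difference below has a replicate check, and no test between groups was made. The 2 input libraries of the series were not analysed here, so copy number and background at any island are unknown. The purity of the sort could not be read from the islands.

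The islands have no gene names, and the annotation at hand is on another build (GRCm38.p6), so no gene was assigned to any island and no island sequence is printed. As background, RefSeq lists 197 genes from H2-K1 to H2-T3 on that build, 125 of them protein-coding. In order from the H2-K end they include H2-K1, the nuclear receptor gene Rxrb, the class II accessory gene H2-Oa and Brd2, which encodes a reader of acetylated histones. H2-DMa, Psmb9, Tap1, Psmb8, Tap2, H2-Ob, H2-Ab1, H2-Aa and H2-Eb1 follow. Farther along come Notch4, the complement genes C4b, Cfb and C2, the histone methyltransferase gene Ehmt2, and then Ltb, Tnf and Lta. H2-D1, the H2-Q genes, Pou5f1, Ier3, Tubb5, Mdc1 and the H2-T genes lie toward the other end. Of the gene lists used here, all 10 class II genes, 6 of 6 H2-Q genes and 4 of 4 complement genes lie in this stretch. All 5 genes of a list of cytokine genes (Tnf, Lta, Ltb) and near neighbours (Aif1, Lst1) lie there too. So do 2 of 4 H2-K and H2-D genes, 6 of 7 H2-T genes, 4 of 5 antigen-processing genes and 7 of 9 chromatin and transcription genes.

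mSin3A islands were packed densely over the H2 complex in all 4 libraries. In condition 1 the window held 82 WT islands (21314 reads) and 93 deficient islands (19586 reads). In condition 2 it held 69 (22586 reads) and 94 (22540 reads). Islands covered 29.4% and 30.8% of the window in WT, conditions 1 and 2, and 27.0% and 32.3% in deficient cells. Over all chromosomes, taken from the first base to the last island, the covered share was between 2.32% and 2.49%, so the H2 window exceeded it by 10.8-fold to 13.3-fold. The order of the genotypes differed between the conditions, and the 2 conditions of deficient cells lay farther apart than the genotypes did within either condition.

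Set beside 1132 other stretches of the same 2.3 Mb length, laid end to end from base 1 of each chromosome, the H2 window had the highest covered share in every library. The median stretch was covered to between 0.978% and 1.14%. The highest of the others reached 23.9% in WT condition 1, on chromosome 15. In the other 3 libraries it was a stretch of chromosome 7, at 22%, 21.0% and 22%. The window was drawn around the complex and the other stretches were not drawn around anything, which favours the window. With the stretches started midway into the first ones, 1 of 1123 stood above the window in deficient condition 1. That stretch, chr10:79350035-81650035, was covered to 28.5%, and in the other libraries it reached 26.0% to 27.6%.

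The density of reads within islands was close to that elsewhere. Condition 1 had 31.3 reads per kb in both genotypes, and condition 2 had 31.9 (WT) and 30.1 (deficient), against 28.7 to 29.3 reads per kb over the genome. The islands of the complex were wider than those of the genome: the median width was 5599 and 9799 bp in WT and 5799 bp in both deficient libraries, against 3199 to 4199 bp over all islands. Islands per Mb exceeded the genome's by 6.67-fold to 7.94-fold, so the complex differed from the genome more in the number and width of its islands than in their density.

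The complex held a smaller share of a library's island reads in deficient than in WT cells. The share was 1.15% (Wilson 95% interval 1.13 to 1.16, counting error only) in WT and 1.03% (1.02 to 1.04) in deficient cells in condition 1. In condition 2 it was 1.26% (1.24 to 1.28) and 1.18% (1.16 to 1.19). The shares differed by a similar amount between the conditions of 1 genotype.

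**Figure D1:**
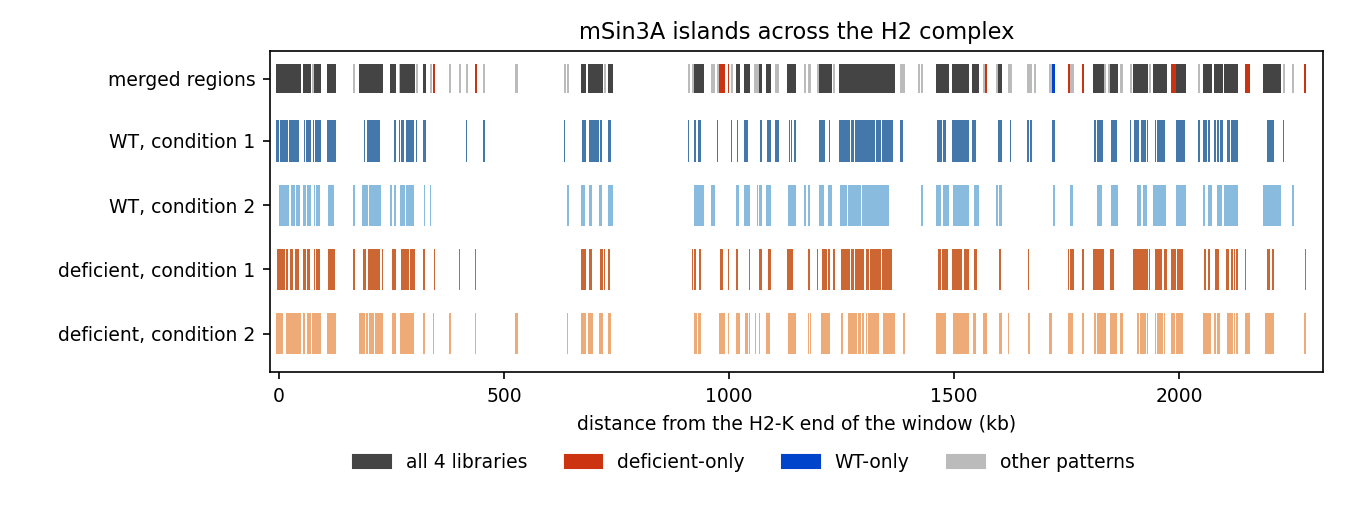
Islands of each library (coloured bars) and merged regions (top row) across the H2 window, by distance in kb from its H2-K end. Bars crowd at the H2-K end, in the middle and between 1840 and 2070 kb. The 3 empty stretches of 67.8 to 167 kb lie between 230 and 920 kb.

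Coverage was uneven along the complex. In 10 segments of 230 kb counted from the H2-K end, the sixth was covered to 56.7% and 57.8% in WT and to 53.4% and 51.0% in deficient cells, conditions 1 and 2. The first segment, at the H2-K end, was covered to 51.6% and 54.6% in WT and to 48.8% and 60.8% in deficient cells. The third segment was the emptiest, with 6.0% and 5.30% in WT and 5.04% and 9.39% in deficient cells. Over the 10 segments the profile was thus much alike in the 4 libraries, with peaks and troughs in the same places.

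In 3 long stretches no island was called in any library. The widest was 167 kb, chr17:34791400-34958600. The others were 103 kb, chr17:34580200-34682800, and 67.8 kb, chr17:34507200-34575000. All lie in the second to the fourth segment.

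**Figure D2:**
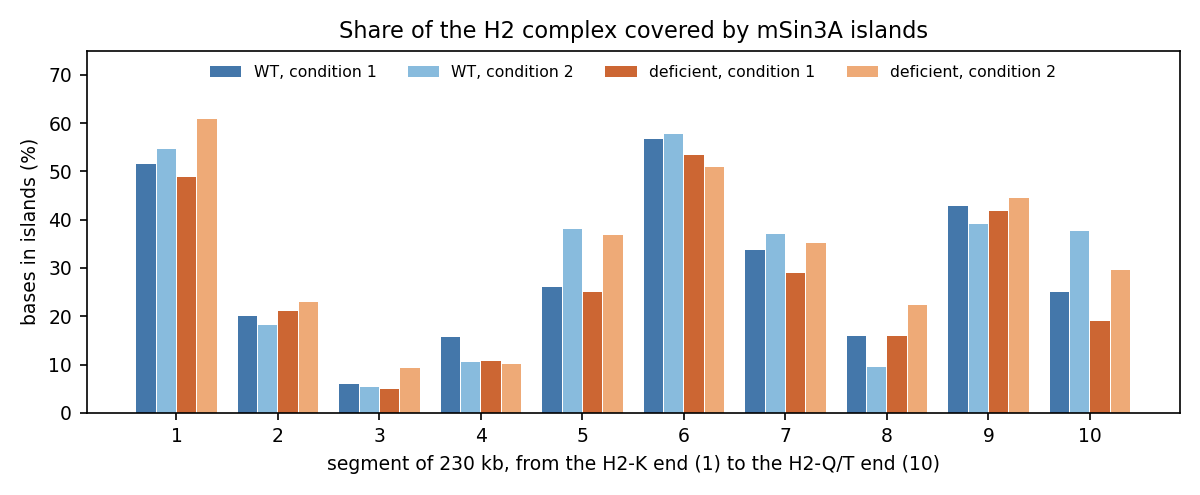
Percent of bases in mSin3A islands in each of 10 segments of 230 kb, 1 bar per library. Segments 1 and 6 reach 48.8% to 60.8% in every library, and segment 3 stays at 5.04% to 9.39%.

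The islands of the 4 libraries joined into 94 regions when overlapping or touching islands were merged, and 37 regions (39.4%, Wilson 95% interval 30.1 to 49.5) were called in all 4 libraries. Over the genome 24% of 23510 regions were. Neighbouring regions are not independent, so the interval is too narrow. Regions called in all 4 libraries were wide, with a median of 19599 bp against 7599 bp for such regions over the genome. Among regions of 10 kb or more, 29 of 32 (90.6%) were called in all 4 libraries, against 72.5% over the genome. Among narrower regions it was 8 of 62 (12.9%) against 17.7%. The share called in all libraries was thus above the genome's among wide regions and below it among narrow ones.

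By bases, 379.1 kb of the 1066 kb called in any library were called in all 4, which is 35.6%, against 16.4% over the genome. Bases called in a single library made up 30.0% of the complex and 50.3% of the genome. Libraries of different genotype shared 56.3% of their bases in condition 1 and 56.0% in condition 2, the 2 WT libraries 58.0% and the 2 deficient libraries 60.4%. Over the genome these shares were 34.6%, 35.6%, 36.5% and 44.1%. Pairs within a genotype thus shared slightly more than pairs across genotypes within a condition.

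Few regions were missed by a single library. Of regions called in the other 3 libraries, each deficient library held 37 of 37, WT condition 1 held 37 of 39 and WT condition 2 held 37 of 38. Over the genome these shares were 96.3% and 93.7% for deficient cells and 87.2% and 83.1% for WT, conditions 1 and 2. More misses in WT libraries were thus not particular to the complex. The 3 regions missed by a WT library make 3.19% of the 94 regions, against 11.0% called in exactly 3 libraries over the genome. WT condition 1 lacked chr17:35225001-35231999, with 162 reads in WT condition 2 and 127 and 158 in deficient cells. It also lacked chr17:35808001-35815799, with 131, 154 and 138 reads in the same order. WT condition 2 lacked chr17:35712401-35722999, with 204 reads in WT condition 1 and 45 and 77 in deficient cells. Reads in the last of these were highest in WT condition 1, where its called length was 9.60 kb against 0.999 and 3.20 kb in deficient cells.

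**Figure D3:**
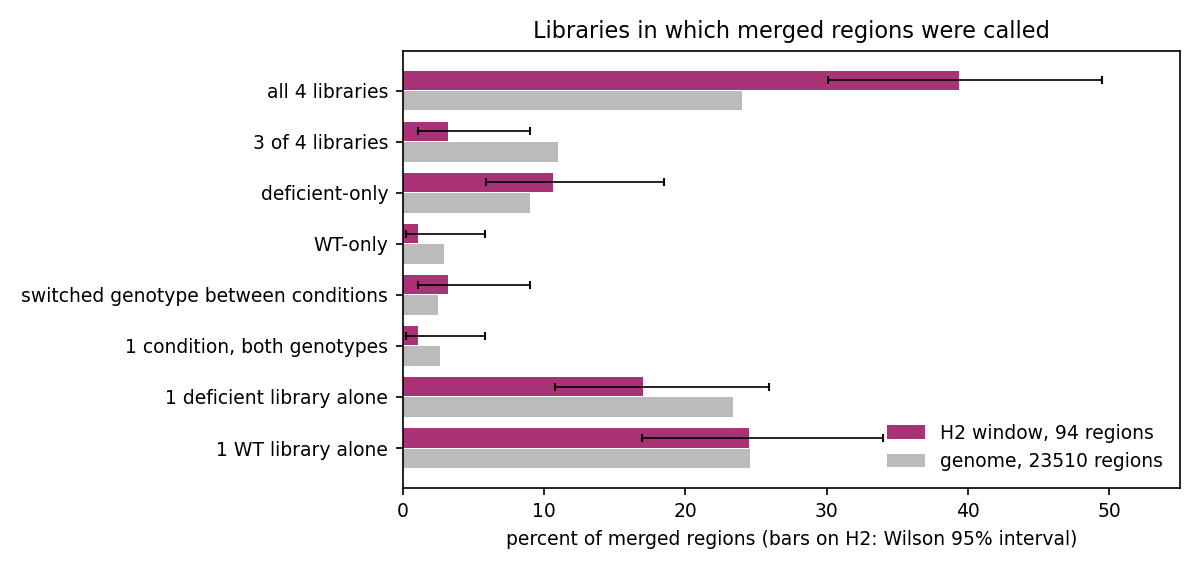
Percent of merged regions called in each combination of libraries, for the H2 window (94 regions, Wilson 95% interval) and the genome (23510 regions). Regions called in all 4 libraries make 39.4% in the window and 24% in the genome, and regions called in 3 libraries 3.19% and 11.0%.

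In 6 of the 8 richest regions of the complex both deficient libraries held fewer reads than both WT libraries. These reads are unscaled, and the same share was not taken over the genome. For genome regions called in every library, the median log2 ratio of deficient over WT reads was -0.061 and -0.085 in conditions 1 and 2. With the ratio divided by that median, chr17:34042601-34097999, among the 6, was slightly above WT in condition 2 (1.01). The richest, chr17:35293401-35387999, spans 94.6 kb and had 2642 and 2683 WT reads, conditions 1 and 2, against 2303 and 2206 deficient reads. Its density did not follow, with 29.8 and 31.2 reads per kb for WT against 29.7 and 33.1, and the called length was 88.6 and 86.0 kb in WT against 77.6 and 66.6 kb.

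At the H2-K edge, chr17:34042601-34097999 had 1827 and 1815 WT against 1509 and 1730 deficient reads. This is the only region that crosses an edge of the window. The region chr17:34227001-34280399 had 1087 and 1216 WT against 1150 and 1452 deficient reads, and the nearby chr17:34319601-34351399 held 762 and 911 against 852 and 948 reads. In these 2 regions, the only ones of the 8, the WT and deficient values interleave. The region chr17:36043401-36065399 had 640 and 748 WT against 583 and 561 deficient reads, and chr17:35249601-35279199 had 640 and 712 against 504 and 615 reads. The other 2 of the 8 richest regions, chr17:35544601-35583999 and chr17:36150401-36181999, are given below with the largest ratios. Each of the 8 ranked at the 97.7th percentile or above of the regions called in each library.

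Summed over the 37 regions, deficient cells held fewer reads than WT, 17840 against 19961 in condition 1 and 19817 against 21607 in condition 2, while the median region lay below WT in condition 1 and above it in condition 2. Ratios are given as reads in deficient over WT cells within a condition, divided by the median ratio of all 5637 regions called in every library. The median over the 37 regions was 0.951 in condition 1 and 1.03 in condition 2, where 1 is the genome's median by construction. The summed reads gave 0.933 (0.914 to 0.952) and 0.973 (0.954 to 0.992) on the same scale, against 0.991 and 0.996 over the genome. The widest gap in condition 2 was at chr17:36236601-36275999, with 1273 WT against 462 deficient reads. The sum without that region was not taken, so the shortfall in condition 2 cannot be read as spread over the complex. Deficient cells were below WT in both conditions in 12 regions (32.4%, against 26.9% over the genome) and above in both in 11 regions (29.7%, against 26.9%). The split follows the scaling: by total island reads it was 18 below (48.6%, against 42.2% over the genome) and 6 above (16.2%, against 13.7%). Without centring it was 17 (45.9%, against 34.5%) and 9 (24.3%, against 18.8%), and per kb of called length 13 (35.1%, against 25.8%) and 7 (18.9%, against 25.8%). Under these 3 scalings the median ratio was below 1 in both conditions. Only 1 region was lower past 1.5-fold in both conditions (2.70%, against 2.00%) and none was higher (1.49% over the genome). None passed 2-fold in both conditions, lower (0.408% over the genome) or higher (0.319%). The shares past 1.5-fold are near the genome's.

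The sizes of the genotype and condition differences were alike. Between genotypes the log2 ratio had a median size of 0.22 and 0.28 in conditions 1 and 2, and it was 0.32 and 0.18 between conditions in WT and deficient cells. Per kb of called length these became 0.16, 0.18, 0.14 and 0.18, against 0.22 to 0.23 over the genome. In 3 of the 4 contrasts the libraries were thus closer per kb than in reads, and in the other they were level. Over the genome the sizes in reads were 0.262, 0.268, 0.248 and 0.231 in the same order, so they were smaller per kb there too.

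**Figure D4:**
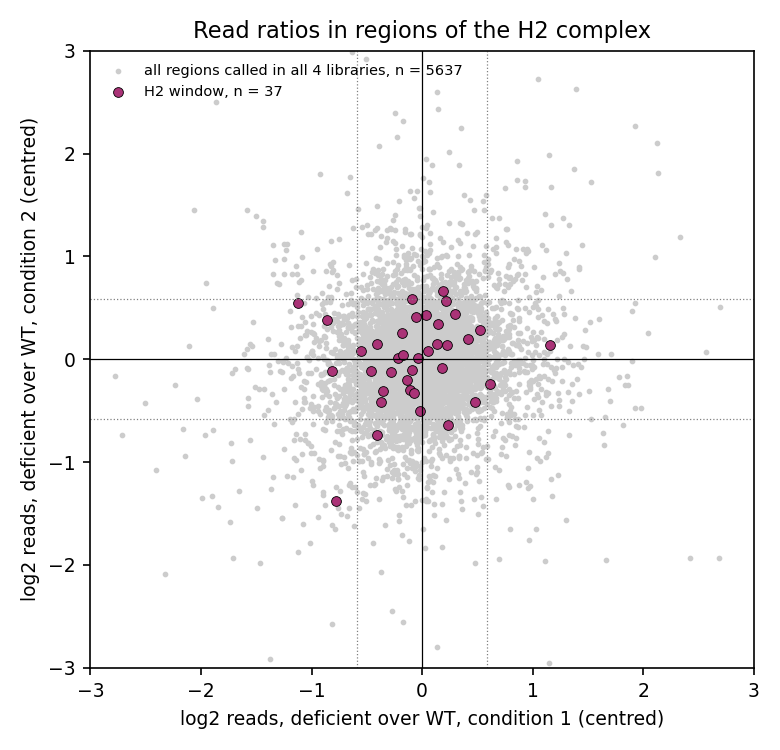
Log2 ratio of reads, deficient over WT, in condition 1 (x axis) and condition 2 (y axis), centred on the genome's median, for the 37 regions of the H2 window and all 5637 regions called in every library. Dotted lines mark 1.5-fold, 5 regions of the genome lie beyond the axes, and 1 region of the window lies past 1.5-fold below WT in both conditions.

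The 5 regions with the largest shortfall in deficient cells all lie in the sixth to the tenth segment, toward the H2-Q and H2-T end. Of the 37 regions called in all libraries, these segments held 3, 4, 1, 7 and 3. The 5 regions with the largest excess, given below, lie in segments 9, 9, 5, 4 and 8 in the order named. A link with position was not tested. Folds here are of reads summed over islands called separately in each library, so called length and density are given with them. Of the 5 with a shortfall, the first was chr17:36236601-36275999, which had 632 and 1273 WT reads against 353 and 462 deficient reads. WT was 1.72-fold (95% interval 1.5 to 1.96, counting error only) higher in condition 1 and 2.60-fold (2.33 to 2.90) in condition 2. It was called as 1 island of 16.2 and 39.4 kb in the WT libraries and as 3 islands of 11.2 and 18.6 kb in all in each deficient library. WT islands here had 39.0 and 32.3 reads per kb, against 31.5 and 24.8, so that the log2 ratio of deficient over WT was -0.31 and -0.37 per kb against -0.78 and -1.38 in reads. The WT libraries themselves differed here, condition 2 being 1.86-fold above condition 1.

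The second, chr17:35590601-35604999, had 233 and 320 WT against 168 and 181 deficient reads, and WT was 1.33-fold (1.09 to 1.63) and 1.67-fold (1.38 to 2.01) higher. The called length was 8.80 and 11.4 kb in WT against 7.60 and 7.40 kb, and per kb the log2 ratio of deficient over WT was -0.27 and -0.19. The third, chr17:36150401-36181999, held 732 and 872 against 542 and 615 reads, 1.29-fold (1.16 to 1.45) and 1.34-fold (1.20 to 1.48) higher in WT. Its density was the same or higher in deficient cells, at 31.5 and 31.4 reads per kb against 30.3 and 29.5. The fourth, chr17:35544601-35583999, held 1324 and 1456 against 991 and 1106 reads, 1.28-fold (1.18 to 1.39) and 1.24-fold (1.15 to 1.34) higher in WT. Here the called length was nearly level, at 37.4 and 37.0 kb in WT and 34.2 and 36.2 kb in deficient cells, and the density fell from 35.4 and 39.4 to 29.0 and 30.6 reads per kb. The fifth is the 94.6 kb region described first, 1.1-fold (1.04 to 1.16) and 1.15-fold (1.08 to 1.21) higher in WT. In each of the 5 both deficient libraries had fewer reads than both WT libraries. The rule picked regions lower in deficient cells in both conditions, so it favours this.

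By segment, the seventh had 4 regions called in all libraries, and all 4 were below the genome's median ratio in both conditions, with medians of -0.38 and -0.31 (log2). The tenth segment, at the H2-Q and H2-T end, had 3 such regions, of which 3 and 2 were below, with medians of -0.41 and -0.42. The segments between these did not share this: the eighth had 1 such region, at 0.19 and 0.66. The ninth had 7, with medians of -0.04 and 0.08. The first segment had 6, with medians of 0.04 and 0.05. Some class I genes of these groups are close copies of one another, and the placement of reads that match several copies was not given in the sources used here. Whether any region named here holds such reads was not tested.

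Deficient cells were higher in both conditions most clearly, by the condition with the smaller ratio, in the 5 regions given next. The neighbouring regions chr17:35948201-35976799 and chr17:35977201-35981999 lead. The first had 603 and 470 WT against 709 and 602 deficient reads, 1.23-fold (1.1 to 1.37) and 1.36-fold (1.20 to 1.54) higher in deficient cells. The second held 152 and 169 against 209 and 194 reads, 1.43-fold (1.16 to 1.78) and 1.22-fold (0.986 to 1.51) higher. Next came chr17:35065801-35074399, with 126 and 150 against 140 and 209 reads, 1.16-fold (0.905 to 1.49) and 1.48-fold (1.19 to 1.84) higher. The region chr17:34761601-34770599 held 214 and 233 against 274 and 251 reads, 1.34-fold (1.11 to 1.61) and 1.14-fold (0.952 to 1.37) higher. The last, chr17:35859801-35882599, held 470 and 345 against 514 and 515 reads, 1.14-fold (1.01 to 1.30) and 1.58-fold (1.38 to 1.82) higher. Libraries of the 2 genotypes overlapped in reads in 2 of the 5 once the conditions were pooled, the first and the third named. Per kb of called length, 4 of the 5 were below WT in both conditions and the first lay on either side. A larger ratio in a single condition, picked out after its values were seen, was that of chr17:34297201-34310599, with 111 and 213 WT against 237 and 221 deficient reads. It was 2.23-fold (1.77 to 2.82) higher in deficient cells in condition 1 and 1.1-fold (0.908 to 1.33) in condition 2. The called length there was 4.20 and 8.20 kb in WT and 9.40 kb in both deficient libraries, at 26.4 and 26.0 against 25.2 and 23.5 reads per kb.

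Shared regions consisted of more islands in deficient cells in sum, here and over the genome. The 37 regions held 62 and 57 islands in WT (means 1.68 and 1.54) and 72 and 66 in deficient cells (1.95 and 1.78). Over the genome the means were 1.17 and 1.12 in WT and 1.25 and 1.18 in deficient cells. Deficient cells had more islands than WT in both conditions in 9 regions (24.3%, against 4.06% over the genome), and fewer in both in none (0.887% over the genome). In a single condition 5 of the 37 had fewer islands in deficient cells, in condition 1 as in condition 2. Wide regions can hold more islands, so the share was also taken over regions of 10 kb or more: there it was 8 of 29 (27.6%) against 10.9% over the genome, with fewer islands in both conditions in none (2.41% over the genome). Widths above 10 kb were not matched, so the part of width in this share was not tested further.

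In both conditions of a genotype and neither of the other, 10 regions were called in deficient cells (deficient-only, 10.6%, near the 8.98% over the genome) and 1 in WT cells (WT-only, 1.06%, against 2.91%). In the upper 50% of islands by reads these were 2 of 50 (4.0%, against 7.87% over the genome) and 1 of 50 (2.00%, against 2.17%). With lists of equal length they were 6 of 75 (8.0%, against 7.14%) and 1 of 75 (1.33%, against 4.05%). In condition 1, 19 regions were called in the deficient but not the WT library, and 10 of these (52.6%, against 31.4% over the genome) had the same pattern in condition 2. The reverse held for 18 regions, of which 1 (5.56%, against 14.4% over the genome) kept it in condition 2 and 15 were listed in neither library there, as were 3615 of 4765 over the genome. Counted from condition 2, 23 regions were called in the deficient but not the WT library. The same 10 of these (43.5%, against 37.9% over the genome) had the pattern in condition 1. The reverse held for 10 regions in condition 2, of which 1 kept it in condition 1, against 19.1% over the genome. The deficient share was thus nearer the genome's when counted from condition 2. Genotype switched between the conditions in 3 regions (3.19%, against 2.48% over the genome). The longer deficient lists move with this: deficient cells had 1.13 times the WT number of islands in the window in condition 1 and 1.36 times in condition 2, and 1.19 and 1.22 times over the genome. The part of list length in these counts was not tested beyond the alternatives given at the end.

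The deficient-only region chr17:35027801-35041599 was the widest of the 10, at 13.8 kb. It held 219 reads in condition 1 and 354 in condition 2, with 28.1 and 25.7 reads per kb, and ranked at the 87.9th and 94.1st percentile of its lists. The nearest WT island lay 2.40 kb away. The region chr17:36032601-36042599, 9999 bp wide, held 221 and 216 reads, and the nearest WT island was 0.80 kb away. The region chr17:36196401-36207999 held 83 and 215 reads and lay 14.4 kb from a WT island. Reads outside listed islands are unknown, so these regions have no fold.

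The other 7 were narrower than the 3 above. The region chr17:35802601-35807399 held 93 and 158 reads at 0.60 kb from a WT island, and chr17:35833401-35839799 held 108 reads in each condition. Reads in chr17:35047001-35050399, 90 and 84, and in chr17:34393001-34396599, 53 and 57, differed little between conditions. The remaining 3 were chr17:34486001-34488399 with 46 and 53 reads, chr17:35619801-35622799 with 35 and 63 reads, and chr17:36328001-36332799 with 32 and 110 reads. These 3 lay 15.6, 14.8 and 21.2 kb from the nearest WT island. The 10 lie in segments 2 (2 regions), 5 (2), 7 (1), 8 (2), 9 (1) and 10 (2). None lay in segments 1 and 6, where coverage was highest. None lay in segment 3, covered to 5.04% to 9.39%, or in segment 4, covered to 10.2% to 15.7%. A link with coverage was not tested.

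The single WT-only region, chr17:35768801-35775399, held 85 reads in condition 1 and 111 in condition 2, with 17.7 and 25.2 reads per kb. A deficient island lay 1.40 kb away, and with regions joined within 2 kb the region was no longer WT-only.

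**Figure D5:**
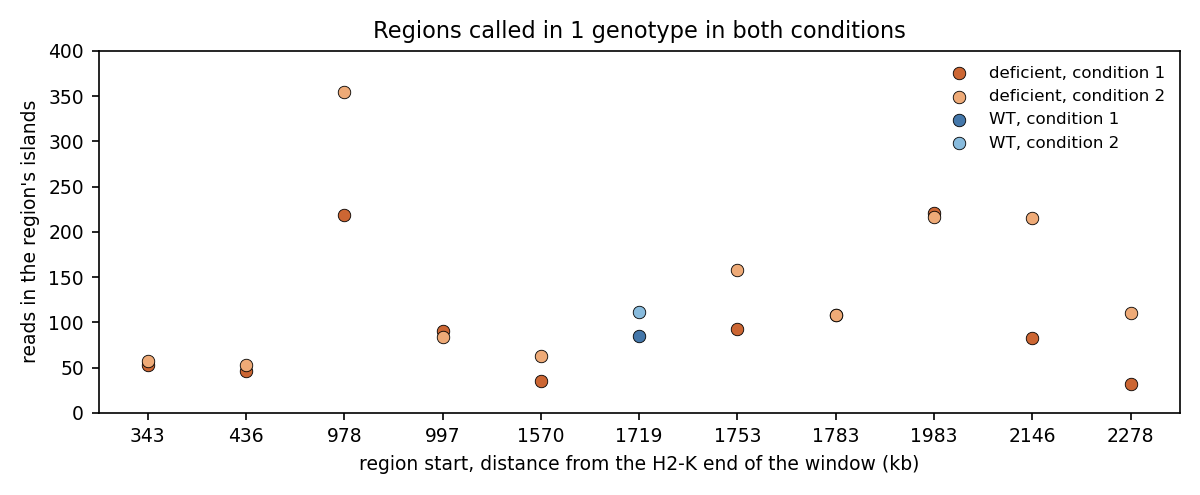
Reads in each region called in both libraries of 1 genotype and in neither of the other, 1 point per library, by start position in kb from the H2-K end. Of the 10 deficient-only regions 3 exceed 200 reads in a library, and the WT-only region holds 85 and 111 reads.

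Regions called in 1 library alone numbered 39 (41.5%, against 48.1% over the genome). WT condition 1 had 15 (16.0%, against 15.4%), with 30 to 121 reads. WT condition 2 had 8 (8.51%, against 9.27%), with 49 to 145 reads. Deficient condition 1 had 6 (6.38%, against 14.7%), with 37 to 75 reads, and deficient condition 2 had 10 (10.6%, against 8.77%), with 36 to 124 reads. All were under 10 kb wide, and medians of 18.9 to 21.4 reads per kb set them below the 31.0 to 33.5 reads per kb of regions called in all 4. The richest were chr17:35010201-35018599 with 145 reads in WT condition 2, chr17:35436601-35440599 with 124 reads in deficient condition 2, and chr17:35477001-35481599 with 122 reads in WT condition 2. In WT condition 1 the richest was chr17:35430201-35435799 with 121 reads, which directly precedes the deficient condition 2 region just named. The region chr17:34691001-34693599 was the single one called in condition 2 only (1.06%, against 0.749% over the genome), with 56 reads in WT and 54 in deficient cells. None was called in condition 1 only (1.87% over the genome).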

How the data were processed

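ChIP-seq with an antibody against mSin3A was done on 4 libraries, 1 for each genotype and condition, and 2 input libraries were not analysed here. The submitters' processing notes name FastQC, Bowtie2 2.2.5 for alignment and SICER 1.1 for calling islands, on mm9. SICER joins neighbouring enriched windows. Whether the inputs served as its background, and its settings, were not given in the sources used here. The authors deposited 1 list per ChIP library with chromosome, start, end and a whole number, taken here as the island's read count, from the whole-number values in SICER's layout, since no header names the column. The deposited counts carry no scaling for depth or width. The lists hold 13397 and 11151 islands with 1857866 and 1792952 reads in WT, and 15954 and 13556 islands with 1901826 and 1917097 reads in deficient cells, conditions 1 and 2. Total sequencing depth is unknown, so intervals cover counting error only.

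Starts are 1-based (1 was added to each deposited start) and a width is the deposited end less the start. Overlapping or touching islands of the 4 lists were merged over the genome into 23510 regions, and those overlapping the window were taken. WT-only and deficient-only mean called in both conditions of that genotype and nowhere in the other. Ratios are of summed island reads in regions called in all 4 libraries, with exact (Clopper-Pearson) 95% intervals. Shares have Wilson 95% intervals. Regions named are all those called in 1 genotype in both conditions, the 8 richest by the worse percentile rank, the 5 largest ratios in each direction, taking the condition where the ratio was smaller in size, up to 5 of each pattern called in 3 or 1 libraries by reads (the richest alone are printed for the latter), and any crossing an edge. The members, gene lists and rules were chosen with earlier results of these data known. Leaving stretches that overlap the window out of the comparison, the split at 10 kb and the count of islands per region were added after the data were seen. The marker lists for cell types and the gene lists could not be set against islands, because the annotation is on another build. Alternatives were other joining, list length, read rank, width, window edges, scaling and overlap. Functions were tested on simulated data. Python 3.11.15, numpy 2.4.6, pandas 2.3.3 and scipy 1.17.1 were used.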

Additional observations from a re-analysis of the deposited data

Results flagged for a closer look

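In 3 regions of the H2 complex the genotype in which the region was called switched between the conditions (3.19% of regions, against 2.48% over the genome). The difference was not tested for any of them. The region chr17:34124401-34127399 was listed with 45 reads in WT condition 1 and with 58 reads in deficient condition 2. The region chr17:34214001-34219199 was listed with 103 reads in WT condition 2 and with 108 reads in deficient condition 1. The region chr17:35152601-35161599 was listed with 209 reads in WT condition 1 and with 33 reads in deficient condition 2.

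In 3 regions called in all 4 libraries the centred ratio of deficient over WT reads lay on opposite sides of 1 in the 2 conditions, each with a counting interval that did not reach 1. The difference between conditions itself was not tested. This count was not taken over the genome, so it cannot be read as particular to the complex. Such regions of the complex had median reads of 353 to 462 per library, against 155 to 174 over the genome, which makes their counting intervals narrower. At chr17:34369401-34377399 WT held 191 and 90 reads and deficient cells 84 and 124, so that the ratios were 0.459 (0.351 to 0.596) and 1.46 (1.11 to 1.94). At chr17:34737001-34760399 WT held 531 and 289 reads and deficient cells 281 and 355, a ratio of 0.552 (0.476 to 0.639) and 1.30 (1.11 to 1.53). Its called length was 22 kb in WT condition 1 and 6.60 to 11.0 kb in the other libraries. At chr17:36015001-36022399 WT held 181 and 259 reads and deficient cells 242 and 183, a ratio of 1.40 (1.15 to 1.70) and 0.750 (0.617 to 0.909). Per kb of called length all 6 of these ratios turned: on the log2 scale they were 0.17 and -0.48 in the first region, 0.81 and -0.31 in the second and -0.35 and 0.34 in the third.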

How the results depend on the processing

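No paired analysis was possible because each group, a genotype in a condition, has 1 library and the labels do not say whether the conditions repeat each other. Ratios within a condition set libraries of the same condition side by side, and a fit of genotype with condition as a term was not made. The count of 37 regions called in all 4 libraries stayed within 1.5 times under every alternative run (32 when joined within 2 kb and in the upper 50% by reads). Deficient-only regions fell from 10 to 2 in the upper 50% by reads and to 6 with lists of equal length. Of the 10 regions themselves, 8 kept their pattern when joined within 2 kb. The WT-only count went from 1 to 0 when joined within 2 kb, and merged regions from 94 to 50 in the upper 50%. The 1 WT-only region in the upper 50% is a different one, since the region named lost its pattern there.

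The median log2 ratio between genotypes was -0.07 in condition 1 and 0.04 in condition 2. Scaled by total island reads it was -0.17 and -0.14, not centred -0.135 and -0.046, and per kb of called length -0.014 and -0.069, so the sign in condition 2 turned under each of these. Between conditions it was 0.02 in WT and 0.08 in deficient cells, against 0.19 and 0.15 by total reads, 0.14 and 0.16 not centred, and -0.009 and -0.060 per kb. Joined within 2 kb it was 0.055 in WT. Regions lower in deficient cells past 1.5-fold in both conditions numbered 1, 0 per kb and 2 when joined within 2 kb.

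Per kb of called length, the direction turned in condition 1 and condition 2 at chr17:36150401-36181999 (0.052 and 0.097), chr17:35977201-35981999 (-0.13 and -0.58), chr17:35065801-35074399 (-0.38 and -0.42), chr17:34761601-34770599 (-0.17 and -0.20) and chr17:35859801-35882599 (-0.048 and -0.118), in condition 2 at chr17:35293401-35387999 (0.092) and in condition 1 at chr17:35948201-35976799 (-0.054), all log2. Joined within 2 kb, chr17:34761601-34770599 became part of a larger region with a ratio of -0.24 in condition 1.

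WT condition 1 islands met in deficient condition 1 made 74.4%, and 39.0% with a reciprocal overlap of 50%, 90.7% in the upper 50% and 84.3% with lists of equal length. Those met in WT condition 2 made 72.0%, then 45.1%, 90.7% and 82.9%. WT condition 2 islands met in deficient condition 2 made 85.5%, and 55.1% with the reciprocal overlap. Deficient condition 1 islands met in deficient condition 2 made 92.5%, and 50.5%. With stretches started midway into the first ones, 1 lay above the window in deficient condition 1. The cause of these changes was not tested.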
